A study of Rattus norvegicus with 35 samples.

Results

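A set of 9 interferon-stimulated genes was followed in the weanling rat mammary gland: Oas1a, Isg15, Rsad2, Ifit1, Ifi47, Mx1, Mx2, Irf7 and Ifitm3. They were taken by name from the array annotation, which uses the older names Oas1 for Oas1a, G1p2 for Isg15 and Best5 for Rsad2. The 9 genes were represented by 12 of the 41012 probes on the array, and 7 of them were among the 16156 genes bright enough to be tested. RNA came from the left abdominal mammary gland of 35 female Sprague-Dawley offspring at postnatal day 21, 1 array per animal and 5 animals in each of 7 groups. Dams of 6 groups were gavaged with bisphenol A (BPA, a plastics monomer with oestrogenic activity) during gestational days 10 to 21. The doses were 250 µg per kg body weight per day in the BPA250+I3C, BPA250+genistein and BPA250 groups, and 25 µg per kg body weight per day in the BPA25+I3C, BPA25+genistein and BPA25 groups. The I3C groups also had indole-3-carbinol, a compound of cruciferous vegetables, at 2000 mg per kg chow (about 45.0 mg per kg body weight per day). The genistein groups had this soy isoflavone at 250 mg per kg chow (about 5.5 mg per kg body weight per day), and the control group is labelled only as a negative control. Among the samples used here no group had either dietary compound without BPA. The labels say that offspring came from different litters but do not give the litter of each animal, so p-values measure the spread between these 35 glands.

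Type I interferons signal through the receptor subunits Ifnar1 and Ifnar2 and the kinases Jak1 and Tyk2 to a transcription factor complex that includes Irf9. This complex binds the interferon-stimulated response element in the promoters of antiviral genes. Interferon gamma acts on a different element, the gamma-activated site. Many of the induced proteins restrict viral replication, and their transcripts are also present at a basal level in unstimulated epithelial, stromal and immune cells. In an extract of whole gland, fewer cells of a type and less RNA per cell cannot be told apart.

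Several probes carried the same gene name at different positions, and what they hybridised to decides what each name stands for. Positions are those of the scanner files on build rn3, each probe has 60 bases, and those files do not say whether a probe lies in an exon, an intron or a UTR. The first 30 bases are given for the probes of the genes that had several, in lower case and 5′ to 3′.
Rsad2 probe 1, chr6:44104230-44104289, minus strand: gtcatgggttgttttctttgaagctgaaag
Rsad2 probe 2, chr6:44106562-44109705, minus strand: aagatgaaagactcctaccttatcctggat
Ifit1 probe 1, chr1:238743927-238743986, minus strand: gttcaagatttccttaccatgtttcagtcc
Ifit1 probe 2, chr1:238744570-238744629, minus strand: ccattacttaaaaggcctgaaaatagaggt
Ifit1 probe 3, chr1:238773972-238774031, plus strand: tatacaggaattggcacatcaggccatttg
Both Rsad2 probes carry the same RefSeq transcript accession. The 60 bases of Rsad2 probe 2 span 3144 bases of genome, so its sequence is split by a gap in the genome, while Rsad2 probe 1 starts 2332 bases away on the 3′ side. Ifit1 probes 1 and 2 start 643 bases apart, are named Ifit1_predicted in the files and carry the accessions of different predicted transcripts. Ifit1 probe 3 carries that of the curated Ifit1 transcript, and it lies on the opposite strand, 30045 bases from Ifit1 probe 1. Values for Ifit1 below come from the Ifit1_predicted probe 1, so they describe that gene model and may not be those of RefSeq Ifit1.

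Oas1a, Ifi47 and Ifitm3, whose levels take up much of what follows, each had a single 60-base probe.
Oas1a, chr12:36680000-36680059, plus strand: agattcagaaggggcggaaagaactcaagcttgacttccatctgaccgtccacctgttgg
Ifi47, chr10:34205285-34205344, plus strand: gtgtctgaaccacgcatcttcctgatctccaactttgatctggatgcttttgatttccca
Ifitm3, chr1:201349593-201349652, minus strand: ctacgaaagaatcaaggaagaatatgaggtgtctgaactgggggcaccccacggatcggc

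Promoter sequences were available in RefSeq (build GRCr8) for 6 of the 9 genes, Oas1a, Rsad2, Ifi47, Mx1, Irf7 and Ifitm3. Isg15, Ifit1 and Mx2 were not matched. The 250 bases before the annotated start were searched on both strands for the core of the interferon-stimulated response element, written as GAAA, any 2 bases and GAAA again. It was present in 4 of the 6 (Oas1a, Rsad2, Irf7 and Ifitm3) and in 3.4% of all 33469 promoters. The stretches that hold it end at the annotated start and are printed with each match in capitals, and in Oas1a 2 overlapping matches form 1 run.
Oas1a, chr12:41330216-41330465, plus strand: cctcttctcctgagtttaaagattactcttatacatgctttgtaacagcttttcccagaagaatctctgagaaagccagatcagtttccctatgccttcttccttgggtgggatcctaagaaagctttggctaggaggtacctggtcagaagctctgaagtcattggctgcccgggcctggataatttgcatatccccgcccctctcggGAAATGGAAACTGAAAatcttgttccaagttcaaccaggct
Rsad2, chr6:48788121-48788370, minus strand: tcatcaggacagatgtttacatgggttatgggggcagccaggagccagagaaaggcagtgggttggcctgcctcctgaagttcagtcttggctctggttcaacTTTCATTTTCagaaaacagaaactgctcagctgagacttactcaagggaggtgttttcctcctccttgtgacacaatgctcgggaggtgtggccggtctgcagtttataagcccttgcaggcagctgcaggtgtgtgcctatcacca
Irf7, chr1:205800024-205800143, minus strand: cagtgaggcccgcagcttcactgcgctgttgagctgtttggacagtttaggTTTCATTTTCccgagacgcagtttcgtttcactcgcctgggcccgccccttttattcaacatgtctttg
Ifitm3, chr1:205541759-205541878, minus strand: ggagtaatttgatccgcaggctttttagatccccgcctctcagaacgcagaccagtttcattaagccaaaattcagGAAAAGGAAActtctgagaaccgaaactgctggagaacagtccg
In Rsad2 and Irf7 the match was on the opposite strand and had the same 10 letters, at -147 to -138 in Rsad2 and at -69 to -60 in Irf7, counted back from the annotated start. In Oas1a the matches ran from -41 to -26 and in Ifitm3 from -44 to -35. The core of the gamma-activated site, TTCNNNGAA, which reads the same on both strands, was found in Oas1a (1 match), Ifi47 (2 matches) and Ifitm3 (1 match), and in 7.7% of all promoters. Mx1 held neither motif in this window. A match describes letters only, and no binding was measured.

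A level is the log2 signal of a probe minus that of the 75th percentile of its array, so that 0 marks a probe as bright as that percentile. Of the 12 probes, 7 passed the filter on dim probes, which asked 4 or more arrays in some group to exceed background clearly, and these stood for 7 of the 9 genes. Oas1a, Isg15 and Irf7 were well above background on 35 of 35 arrays, Rsad2 probe 1 and Ifit1 probe 1 on 34, Ifitm3 on 33 and Ifi47 on 26. Mx1 was above background on 10 arrays and Mx2 on 11, and neither was tested. Mx1 and Mx2 encode dynamin-like antiviral GTPases. Of the probes that did not represent a gene, Rsad2 probe 2 was above background on 12 arrays and Ifit1 probes 2 and 3 on 4 each. No member probe was saturated on any array.

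**Figure D1:**
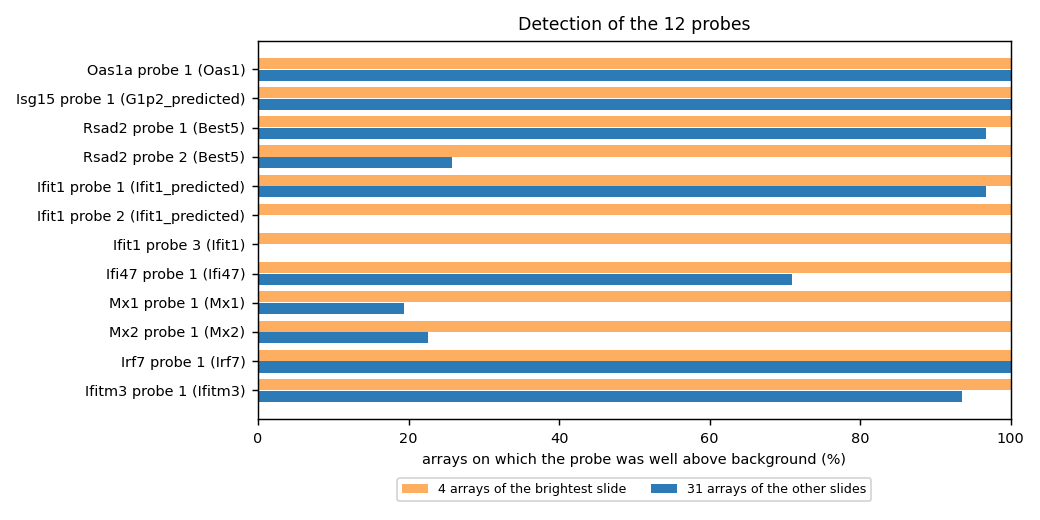
Share of arrays (%) on which each of the 12 probes was well above background, for the 4 arrays of the brightest slide (orange) and the 31 arrays of the other slides (blue). On the brightest slide every probe passed, while Ifit1 probes 2 and 3 passed on 0 of the 31 other arrays.

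The arrays lay on 10 slides scanned on 5 days. On 1 slide, which held replicate 2 of BPA25+genistein, BPA250, BPA25 and control, 93.5% to 96.5% of probes were well above background, against 32.5% to 72.6% on the other 31 arrays. Slide alone took up 61.3% of the variance of all tested genes and group alone 16.5%. Among the members, group took up 48.3% of the variance of Oas1a, 44.6% of Rsad2, 36.8% of Ifi47, 36.2% of Ifit1, 30.5% of Ifitm3, 22.2% of Isg15 and 7.4% of Irf7. For Irf7, slide took up 73.9%. BPA25+genistein replicate 4 and BPA250+genistein replicate 4 were the 2 arrays with the lowest Ifitm3 levels. Of the 15407 tested genes with no missing level, 733 (4.76%) had their 2 lowest levels on these arrays. Singly, these arrays held the lowest level of 3% and 5% of those genes. Replicate 2 of BPA250, BPA25+genistein and control, on the brightest slide, held that of 25.3%, 12.6% and 10.9%. Other pairs of arrays are not given, so these values do not show whether the 2 genistein arrays stood apart as a pair. BPA250+genistein replicate 4 had the lowest 75th percentile signal of all arrays (30.4). Of the marker lists, the 7 of 7 adipocyte markers had a mean level of 2.63 to 5.61, and the 8 of 8 skeletal muscle markers -2.90 to 6.41, over all arrays. Of the epithelial markers, 5 of 6 luminal genes passed the filter with a mean level of -2.07 to 2.25. Of immune cell markers, 6 of 6 macrophage and 4 of 9 T cell genes passed the filter, against 1 of 6 B cell, 1 of 6 NK cell and 0 of 6 dendritic cell genes.

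A moderated F test over the 7 groups (limma, Benjamini-Hochberg adjustment over 16156 genes) called 0 of the 7 members at an adjusted p under 0.05, and 1 gene in all (0.00619%). At an unadjusted p under 0.05 it passed 4 members, against 4.04% of all genes tested: Rsad2 (adjusted p = 0.5), Oas1a (adjusted p = 0.666), Ifit1 (adjusted p = 0.957) and Ifi47 (adjusted p = 1). In the 13 contrasts, 0 members were called, against 0% to 0.0124% of all genes (0%, 0.00619% or 0.0124% by contrast). Of the 91 combinations of member and contrast, 14 had an unadjusted p under 0.05. In the contrasts and directions of these 14, 0.805% to 2.99% of all genes passed at that p, by contrast. The share over all 13 contrasts is not given. Contrasts share groups, so the 14 are not separate results. Each of these 14 kept its direction in all of the 51 alternative settings that could be computed for it. Of these settings 35 left out 1 array, which cannot move a comparison if the array is of a group outside it. The 14 were also chosen by their p in the same data, so a kept direction says little. These 14 are the member differences given below with an SE and an adjusted p from the reported fit, and adjusted p-values are limma's Benjamini-Hochberg values over the 16156 genes of the contrast. The 6 comparisons with control share the same 5 control arrays.

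**Figure D2:**
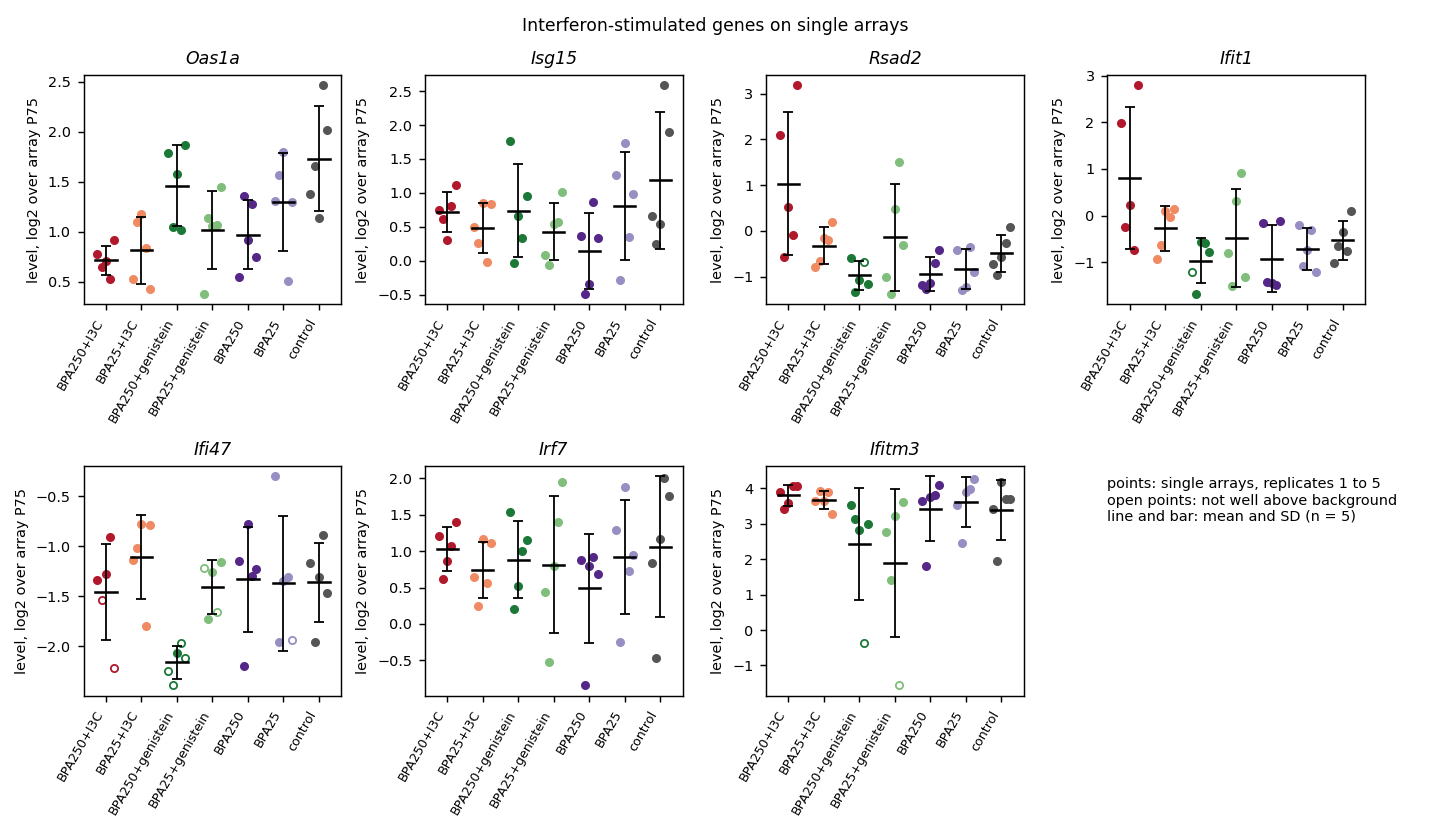
Level of the 7 tested members (log2 over the 75th percentile of the array) on each of the 35 arrays, by group, with mean and SD. Open points mark arrays on which the probe was not well above background. The BPA250+I3C arrays reached 3.19 in Rsad2 and lay between 0.53 and 0.92 in Oas1a.

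Rsad2 and Ifit1 were high on the same few glands, mainly of the BPA250+I3C group. Rsad2 encodes viperin, a radical SAM enzyme that makes a chain-terminating nucleotide. Ifit1 in other mammals encodes a protein that binds viral RNA lacking host cap methylation. Rsad2 had levels of 2.10, -0.57, 0.53, -0.09 and 3.19 on the BPA250+I3C arrays, against -1.18, -1.27, -1.14, -0.70 and -0.41 on the BPA250 arrays. Replicates 1 and 5 of BPA250+I3C were the brightest of all 35 arrays for this gene, and replicate 2 overlapped the BPA250 range. The mean was 1.03 ± 1.57 in BPA250+I3C and -0.94 ± 0.37 in BPA250 (SD, n = 5 each), a log2 difference of 1.97 ± 0.49 (SE, adjusted p = 0.766). Without BPA250+I3C replicate 5 it was 1.43 (unadjusted p under 0.05), and without the 4 arrays of the brightest slide 1.89 (unadjusted p under 0.05).

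Ifit1 was also highest in replicates 5 and 1 of BPA250+I3C, with levels of 1.99, -0.25, 0.22, -0.74 and 2.80 in this group, against -0.15, -1.42, -1.44, -1.48 and -0.12 in BPA250. The groups overlapped through replicates 2 and 4 of BPA250+I3C. The log2 difference was 1.72 ± 0.50 (SE, adjusted p = 0.766), and 1.22 without BPA250+I3C replicate 5 (unadjusted p under 0.05). In that comparison all tested genes shifted by a median log2 of 0.24, and 2.99% of them were higher at an unadjusted p under 0.05. On the 1 slide that held both groups, BPA250+I3C exceeded BPA250 by 3.28 in Rsad2 and 2.14 in Ifit1, with 1 array each.

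Control glands gave -0.72, -0.97, -0.57, -0.27 and 0.08 for Rsad2, so that BPA250+I3C was higher than control by 1.52 ± 0.49 on the log2 scale (SE, adjusted p = 0.563). Rsad2 passed at an adjusted p of 0.0383 in this contrast when slide was a random block, which called 0.538% of all genes, and at 0.145 it did not when slide was a fixed block. Leaving out BPA250+I3C replicate 5 moved the difference to 0.98 (unadjusted p under 0.05). Ifit1 had -1.01, -0.66, -0.35, -0.75 and 0.10 in control, and BPA250+I3C was higher by 1.34 ± 0.50 (SE, adjusted p = 0.917), or by 0.84 without replicate 5 (unadjusted p over 0.05). Of all genes, 1.86% were higher at an unadjusted p under 0.05 against control.

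The dimmer Rsad2 probe 2 was brightest in replicates 5, 3 and 1 of this group. It had levels of -2.41, -4.03, -1.77, -4.02 and -1.52 in BPA250+I3C, and was well above background on 3 of these 5 arrays. Its group mean of -2.75 was that of BPA25+genistein (-2.75), against -3.0 in BPA250 and -3.04 in control. On the slide of BPA250+I3C replicate 3, replicate 2 of BPA250+genistein (-1.32) and of BPA25+I3C (-1.17) were brighter for this probe. Ifit1 probe 2 was not above background on any of them, with -2.57 and -3.21 in replicates 1 and 5 and -4.64 to -4.04 in the other 3. Ifit1 probe 3 ran from -5.23 to -4.32 in this group and did not set replicates 1 and 5 apart.

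At the lower BPA dose the values were smaller. Rsad2 averaged -0.32 ± 0.40 in BPA25+I3C and -0.84 ± 0.44 in BPA25 (SD, n = 5 each), a log2 difference of 0.52 ± 0.49 (SE, unadjusted p over 0.05). The I3C difference was larger at BPA250 than at BPA25 by 1.45 ± 0.70 for Rsad2 (SE, adjusted p = 1.00), against 1.68% of all genes higher at an unadjusted p under 0.05, and by 1.28 ± 0.71 for Ifit1 (SE, unadjusted p over 0.05). Without BPA250+I3C replicate 5 the value for Rsad2 was 0.91 (unadjusted p over 0.05). BPA25+genistein replicate 4, the array with the lowest Ifitm3 level, was also bright for both genes, with 1.51 in Rsad2 and 0.91 in Ifit1. The other 4 arrays of BPA25+genistein had Rsad2 levels of -1.38 to 0.47.

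**Figure D3:**
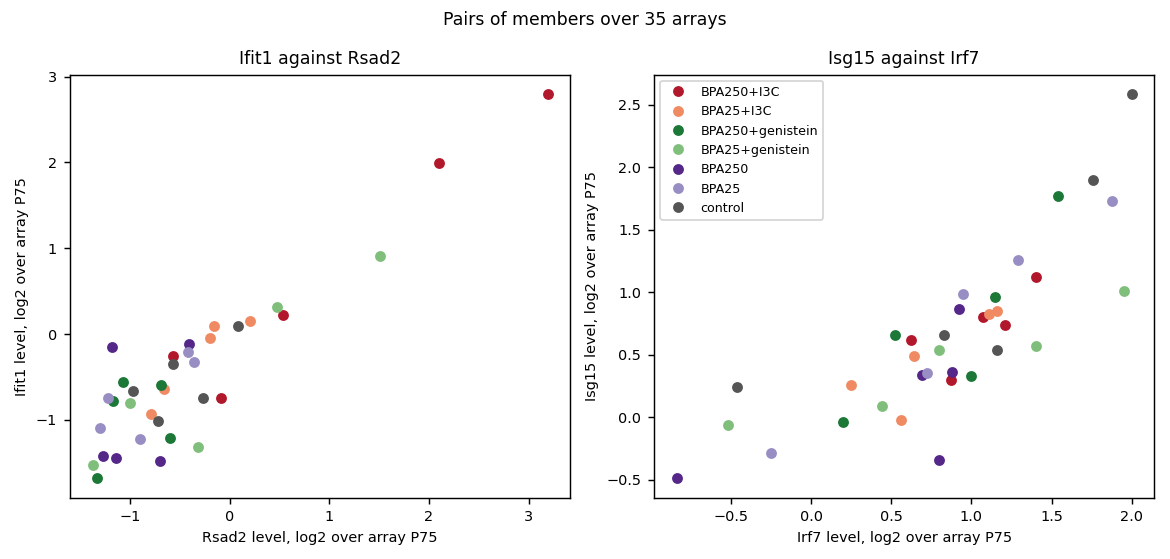
Levels of Ifit1 against Rsad2 (left) and of Isg15 against Irf7 (right) on the 35 arrays, coloured by group (log2 over the 75th percentile of the array). The 2 arrays at the upper right of the left plot are BPA250+I3C replicates 5 and 1, with Rsad2 levels of 3.19 and 2.10.

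Across the 35 arrays, Rsad2 and Ifit1 had a Pearson correlation of 0.908 (Spearman 0.763), which was 0.774 without the 2 arrays farthest from the Rsad2 median and 0.897 after slide means were removed. Isg15 and Irf7 had 0.812 (Spearman 0.849), or 0.757 after slide means were removed. Oas1a and Isg15 had 0.556, which was 0.317 without the 2 arrays farthest from the Oas1a median and 0.779 after slide means were removed. Oas1a and Rsad2 had -0.208, which was -0.196 after slide means were removed and 0.249 after group and slide were both removed. These 4 of the 21 pairs describe arrays that share slide, labelling and tissue composition.

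Oas1a had a lower mean than control in all 6 BPA-exposed groups, with the lowest means under I3C. It encodes an oligoadenylate synthetase, which on binding double-stranded RNA makes the activator of RNase L. Its levels were 0.78, 0.65, 0.71, 0.53 and 0.92 in BPA250+I3C and 1.38, 1.66, 1.14, 2.47 and 2.02 in control. These groups did not overlap, as for 0.724% of all genes in the lower direction. The mean was 0.72 ± 0.14 in BPA250+I3C and 1.74 ± 0.52 in control (SD, n = 5 each), a log2 difference of -1.02 ± 0.27 (SE, adjusted p = 0.226). All tested genes had a median log2 difference of 0.20 in this contrast, and 1.77% of them were lower at an unadjusted p under 0.05. On the 3 slides that held both groups BPA250+I3C minus control was -1.94 to -0.60. Oas1a passed at an adjusted p of 0.0463 with slide as a random block and at 0.00693 with array weights, but not with slide as a fixed block (adjusted p = 0.170). The random block called 0.538% of all genes in this contrast and array weights 1.02%. With the array median in place of the 75th percentile the difference was -0.80 (unadjusted p over 0.05).

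In BPA25+I3C, Oas1a had 0.53, 1.10, 1.18, 0.84 and 0.43, of which 1 value lay inside the control range. The log2 difference from control was -0.92 ± 0.27 (SE, adjusted p = 1.00), against 1.21% of all genes lower at an unadjusted p under 0.05, and the adjusted p was 0.0151 with array weights, which called 0.415% of all genes. With the array median in place of the 75th percentile the difference was -0.81 (unadjusted p over 0.05). Against the same BPA dose without the diet, the differences were smaller: -0.25 for BPA250+I3C minus BPA250 (unadjusted p over 0.05) and -0.48 for BPA25+I3C minus BPA25 (unadjusted p over 0.05).

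BPA250 glands had Oas1a levels of 0.55, 1.36, 0.92, 1.28 and 0.75, with 2 inside the control range. BPA250 was lower than control by a log2 difference of -0.76 ± 0.27 (SE, adjusted p = 1), and BPA25+genistein by -0.71 ± 0.27 (SE, adjusted p = 1). Without control replicate 4, the brightest control array, these were -0.58 (unadjusted p under 0.05) and -0.53 (unadjusted p over 0.05). On the 3 slides that held both groups BPA250 minus control was -0.83 to 0.13, with the same direction on 2. With normexp on the mean spot signals (offset 50) the differences of BPA250 and BPA25+genistein from control were -0.47 (unadjusted p under 0.05) and -0.34 (unadjusted p over 0.05). BPA250+genistein averaged 1.46 ± 0.40 and BPA25 1.30 ± 0.49 (SD, n = 5 each), with differences from control of -0.27 (unadjusted p over 0.05) and -0.44 (unadjusted p over 0.05).

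Isg15 had a lower mean in BPA250 than in control glands. It encodes a ubiquitin-like protein that is joined to other proteins during the interferon response. Its levels were 0.36, -0.49, -0.34, 0.87 and 0.34 in BPA250, against 0.66, 0.24, 0.54, 2.59 and 1.90 in control. The groups overlapped, and control replicates 4 and 5 stood above the other 3. The mean was 0.15 ± 0.56 in BPA250 and 1.18 ± 1.01 in control (SD, n = 5 each), a log2 difference of -1.04 ± 0.40 (SE, adjusted p = 1). Of all genes, 0.805% were lower at an unadjusted p under 0.05 in this contrast. Without control replicate 4 the difference was -0.68 (unadjusted p over 0.05). On the 3 slides that held both groups BPA250 minus control was -0.72 to 0.33, with the same direction on 2.

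Irf7, the transcription factor that amplifies type I interferon production, had group means that ran from 0.49 ± 0.75 in BPA250 to 1.06 ± 0.97 in control (SD, n = 5 each). Its contrast with the smallest p was BPA250 minus control, at -0.57 (unadjusted p over 0.05). Its 4 arrays on the brightest slide, replicate 2 of BPA25+genistein, BPA250, BPA25 and control, had -0.52, -0.84, -0.25 and -0.46 and were the 4 lowest of the 35.

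**Figure D4:**
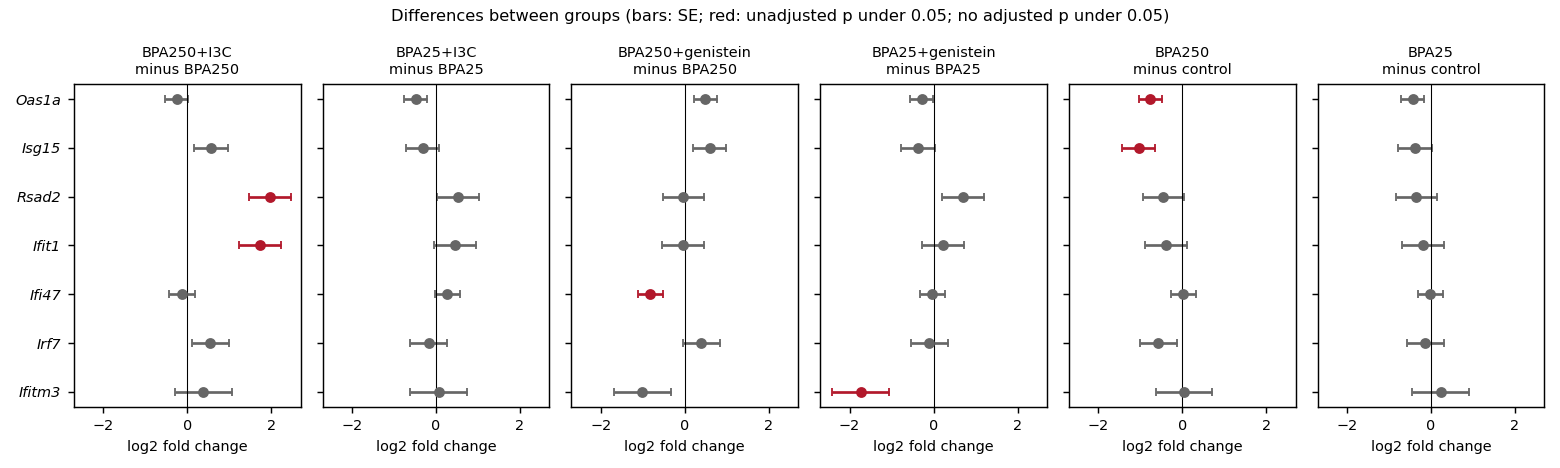
Log2 fold change of the 7 tested members with SE in 6 comparisons: each diet at each BPA dose minus the same dose alone, and each BPA dose minus control. Red points have an unadjusted p under 0.05, and no adjusted p was under 0.05. Rsad2 (1.97) and Ifit1 (1.72) were highest in BPA250+I3C minus BPA250, and Ifitm3 (-1.73) was lowest in BPA25+genistein minus BPA25.

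Ifi47 was low on all 5 BPA250+genistein arrays. It encodes an interferon gamma-inducible GTPase of the immunity-related family. Its levels were -2.25, -2.39, -2.07, -1.97 and -2.12 in BPA250+genistein, where it was well above background on 1 of 5 arrays. BPA250 gave -1.15, -2.20, -0.78, -1.30 and -1.23, and control -1.17, -1.96, -1.31, -0.89 and -1.47. BPA250+genistein did not overlap with control, as for 0.569% of all genes in the lower direction, and overlapped with BPA250 through BPA250 replicate 2. The log2 difference was -0.83 ± 0.30 from BPA250 (SE, adjusted p = 1) and -0.80 ± 0.30 from control (SE, adjusted p = 0.988). At an unadjusted p under 0.05, 1.66% of all genes were lower than in BPA250 and 2.23% lower than in control.

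With slide as a fixed block these differences were -1.07 (adjusted p = 0.0495) and -1.19 (adjusted p = 0.0228), and with slide as a random block the adjusted p was 0.0282 and 0.0275. The fixed block called 0.0248% and 0.00619% of all genes in these contrasts and the random block 0.47% and 0.0186%. Without BPA250+genistein replicate 4 the differences in the reported fit were -0.87 and -0.85 (both at an unadjusted p under 0.05). On the slides that held both groups, BPA250+genistein minus BPA250 was -1.29 and -0.89 (2 slides) and BPA250+genistein minus control -1.08 (1 slide). Over all arrays, the 2 differences were -0.859 and -0.885 with quantile normalization (both at an unadjusted p over 0.05). With the array median in place of the 75th percentile they were -1.015 and -1.121 (both at an unadjusted p over 0.05). The deposited series table gave -0.566 and -0.534 (both at an unadjusted p under 0.05). With normexp on the mean and local background signals and an offset of 50, they were -0.12 (unadjusted p over 0.05) and -0.04 (unadjusted p over 0.05). That setting changes the signal, the background and the offset together, and which of them moved this dim probe was not tested. In BPA250+genistein minus BPA250 the skeletal muscle markers (8 of 8) had a median log2 difference of -1.89 and the T cell markers (4 of 9) 1.5. The basal and myoepithelial markers (4 of 6) had -1.13, the neutrophil markers (3 of 6) -0.95 and the B cell marker (1 of 6) 1.535. The part of these cell types in the result was not tested. BPA25+genistein, at -1.41 ± 0.27 (SD, n = 5), differed from BPA25 by -0.03 (unadjusted p over 0.05), and the genistein difference at BPA250 minus that at BPA25 was -0.79 ± 0.42 (SE, unadjusted p over 0.05).

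Ifitm3, a membrane protein that blocks the entry of enveloped viruses, was the brightest member, at the 87.4th percentile of tested genes by mean level. It had its 2 lowest levels on BPA25+genistein replicate 4 and BPA250+genistein replicate 4, which makes it 1 of the 733 genes counted above. Its levels were 2.78, 1.42, 3.21, -1.56 and 3.61 in BPA25+genistein, against 3.52, 2.45, 3.9, 3.98 and 4.28 in BPA25 and 3.43, 1.96, 4.17, 3.70 and 3.70 in control. Replicate 4 of BPA25+genistein was not above background. Replicate 4 of BPA250+genistein, at -0.37, was not above background either, while the other arrays of that group had 2.83 to 3.52.

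The log2 difference of BPA25+genistein was -1.73 ± 0.68 from BPA25 (SE, adjusted p = 0.960) and -1.50 ± 0.68 from control (SE, adjusted p = 1). Of all genes, 2.06% and 1.05% were lower at an unadjusted p under 0.05 in these contrasts. Without BPA25+genistein replicate 4, the differences were -0.87 (unadjusted p over 0.05) and -0.64 (unadjusted p over 0.05). With the normexp setting the first was -1.08 (unadjusted p over 0.05). Some other interferon genes were low on BPA25+genistein replicate 4 and BPA250+genistein replicate 4. The immunoproteasome subunit Psmb8 had -2.03 and -2.16 there, and the transcription factor Irf5 -1.68 and -2.02. The phosphatase Ptpn6 had -1.84 and -1.30 there, and Nmi -1.48 and -1.82. Others went the opposite way, with their 2 highest levels on these arrays: B2m (8.95 and 8.92), Sp110 (3.5 and 3.32) and Ifi27 (5.94 and 5.82). How many genes of the interferon lists were low or high there was not counted. The related genes Ifitm1 (3.80 and 4.36) and Ifitm2 (6.08 and 7.59) lay near or above their medians of 4.05 and 6.13 over all 35 arrays. These genes were named after their values were seen.

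Mx1 and Mx2 could not be compared between groups. Outside the brightest slide, Mx1 was above background on 6 and Mx2 on 7 of 31 arrays. Mx2 was above background on 0 of 5 BPA250+I3C arrays (-5.56 to -3.38) and 0 of 5 BPA250+genistein arrays (-4.04 to -2.27), against 3 of 5 control arrays (-4.56 to -0.73), of which 1 lay on the brightest slide, where every member probe passed and neither other group had an array. Mx1 was above background on 1 or 2 of the 5 arrays of every group. The brightest Mx2 array was control replicate 4, at -0.73, which was also the brightest for Oas1a, Isg15 and Irf7.

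In order of group means, Rsad2 and Ifit1 were both highest in BPA250+I3C and lowest in BPA250+genistein, and Oas1a, Isg15 and Irf7 were highest in control. A single gland, control replicate 4, had the highest level of all arrays for each of Oas1a, Isg15 and Irf7. Of the 42 steps between neighbouring groups in these orders, 1 exceeded the larger SD of both groups: BPA250+I3C over BPA250+genistein in Ifi47, by 0.70.

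The members' mean profile over the arrays, after slide means were removed, was followed most closely by Gmfb (Pearson correlation 0.747), Atp2a2 (0.725), Atg3 (0.725), the unnamed transcript CF978977 (0.718) and Acbd3 (0.712), none of which is in the interferon lists. Among other interferon genes the closest were Irf5 (0.540), Cxcl10 (0.504), Ifi44 (0.498), Ube2l6 (0.494) and Nmi (0.492). The members themselves had 0.233 (Oas1a) to 0.662 (Rsad2) with their own mean.

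Other genes of the interferon pathway were read from lists of ligands, receptors and signalling genes, nucleic acid sensors, negative regulators and further interferon-stimulated effectors. None of the 5 interferon ligands on the array passed the filter: Ifnb1 was above background on 13 arrays, Ifna5 on 5, Ifna4 and Ifng on 4 each and Ifnk on 0. Of the receptor and signalling genes 10 of 11 on the array passed, including Ifnar1, Jak1 and Irf9, of the sensors 9 of 14, of the negative regulators 6 of 9 and of the further effectors 33 of 45. Limma called 0 of these genes at an adjusted p under 0.05 in any of the 13 contrasts. By the F test over the 7 groups all of them had an unadjusted p over 0.05, against 4.04% of all genes under it. Those with an unadjusted p under 0.05 in a contrast are named below, with adjusted p-values of 0.766 to 1. The share of all genes is given beside them only in contrasts and directions in which a member passed too. It is not given for Tap1, Irf9, Irf1, Rig1 in BPA25 minus control, or Tap2 in the difference between doses. Those cannot be weighed against all genes here. With this many genes in 13 contrasts, some pass at that p by chance.

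At an unadjusted p under 0.05, BPA250+I3C minus BPA250 gave Cxcl10, a T cell-attracting chemokine, as higher (log2 1.01 ± 0.45, SE). Of all genes, 2.99% were higher at that p. In the same contrast Tap1, a subunit of the peptide transporter for MHC class I, had -1.01 ± 0.49 (SE) and Irf9, the DNA-binding subunit of the interferon-response complex, -0.58 ± 0.27 (SE). Cxcl10 had levels of -2.20, -1.83, -2.03, -1.59 and -2.13 in BPA250+I3C, against -2.35, -3.37, -3.71, -1.52 and -3.86 in BPA250. Its I3C difference was larger at BPA250 than at BPA25 by 1.77 ± 0.64 (SE, adjusted p = 1.00), against 1.68% of all genes higher at an unadjusted p under 0.05. Cxcl10 was even over the BPA250+I3C arrays and did not set replicates 1 and 5 apart. In BPA250 replicates 1, 3 and 5 it lay under the dimmest spot well above background on the same array (-2.13, -3.61 and -2.32). In BPA25+I3C replicates 2, 3 and 4 it had -3.24, -2.93 and -4.5, under -3.15, -2.355 and -2.82. Cxcl10 was thus not detected on those arrays, which limits its differences. Ifit2, another tetratricopeptide member of the family of Ifit1, had 0.52, -0.03, -0.16, -0.31 and 0.37 in BPA250+I3C, against 0.09, -1.26, -0.25, 0.16 and -0.11 in BPA250.

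Against control, BPA250+I3C had Tlr3, a sensor of double-stranded RNA, at 0.75 ± 0.34 (SE) and BPA25+I3C had Cxcl10 at -0.93 ± 0.45 (SE). At an unadjusted p under 0.05, 1.86% of all genes were higher in the first contrast and 1.21% lower in the second. Rig1, the cytosolic RNA sensor named Ddx58 in the files, had -0.67 ± 0.27 in BPA25+genistein minus control (SE) and -0.56 ± 0.27 in BPA25 minus control (SE). In BPA25+genistein minus control 1.05% of all genes were lower at that p. BPA25+genistein minus BPA25 gave Tap2, the partner of Tap1, at -1.05 ± 0.48 (SE) and Ifi35 at -0.44 ± 0.21 (SE). In this contrast 2.06% of all genes were lower at that p. The genistein difference of Tap2 at BPA250 minus that at BPA25 was 1.52 ± 0.68 (SE). BPA250 minus BPA25 gave Irf1, a transcription factor induced by interferon gamma, at -0.68 ± 0.32 (SE).

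Counted without regard to a test, 28 of the 33 further effectors had a log2 difference under 0 in BPA250 minus control, with a median of -0.20, against 58.3% and -0.03 for all genes. Of the 7 members 5 were under 0 in that contrast, with a median of -0.45. Control replicate 4 was the brightest array for some of these effectors, such as Rtp4 and Oasl2. How many was not counted, and the counts without that array are not given. In BPA250+I3C minus BPA250, 27 of the 33 effectors were over 0 (median 0.30) and 5 of the 7 members (median 0.55), against 69.8% of all genes (median 0.24). All 7 members were under 0 in BPA250+genistein minus control, against 44.1% of all genes, and 1 of them, Ifi47, had an unadjusted p under 0.05. In BPA250+genistein minus BPA250, 25 of the 33 effectors were over 0 (median 0.23) and 3 of the 7 members (median -0.03), against 58% of all genes (median 0.07). The sign of the members' median in this contrast was kept in 38 of 51 alternative settings (-0.22 to 0.33). Settings that left out an array of another group could not move it.

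Marker levels of muscle, immune cells and milk proteins are given as ranges and medians, without a test of a list. At an adjusted p under 0.05, limma called 1 muscle marker in BPA25+I3C minus BPA25. It called no T cell, macrophage or milk protein marker in any contrast. The mean level of the 8 of 8 skeletal muscle markers was -2.90 to 2.64 in BPA250+I3C, -2.77 to 6.23 in BPA25+I3C, -2.73 to 2.54 in BPA250+genistein, -2.45 to 4.44 in BPA25+genistein, -1.82 to 2.85 in BPA250, 1.93 to 5.74 in BPA25 and 3.73 to 6.41 in control. BPA250+I3C replicates 1 and 5, the glands with the highest Rsad2, had muscle levels of 2.64 and -2.90, the extremes of their group. The 4 of 9 T cell markers had 0.97 and -0.63 on those 2 arrays and -1.10 to 1.21 on the other 3. The 6 of 6 macrophage markers had 0.97 and 0.44 on them and -0.04 to 0.88 on the other 3. Oas1a and Isg15 had lower means in BPA250 than in control. In that contrast the skeletal muscle markers had a median log2 difference of -2.89, the T cell markers -0.88 and the macrophage markers -0.12. Milk protein markers (4 of 5) were at -3.59 to -0.72 in BPA25+I3C and -1.99 to 0.03 in BPA250+I3C, against -0.87 to 0.98 in control. The part of these cell types in the members' differences was not tested.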

How the data were processed

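RNA (150 ng per gland, Cy3-labelled from primers with a run of thymines) was hybridised to 35 one-colour Agilent 4x44K rat arrays. The deposited scanner files hold one intensity per spot, made with Agilent Feature Extraction 9.5.3.1 per the submitters' processing notes. Per the file headers, this processed signal is background-subtracted. The deposited series table holds log2 values (column medians 6.55 to 6.58), whose scale was found by comparison with the scanner values (correlation 0.903 to 0.954) and whose between-array method is not given in the sources used here. It was used as an alternative. Levels were log2 processed signal minus the 75th percentile of the array, with spots of a probe averaged. A probe was kept if well above background on at least 4 of 5 arrays of a group with at most 5 values missing, and the brightest kept probe stood for a gene. A 7-group model was fitted with limma 3.58.1 (R 4.3.3) over 16156 genes. The script was tested on simulated data. Probes were renamed through RefSeq GRCr8 where matched (21259 of 41012). The members, lists and tests were chosen with earlier results of these data known. All members are described, with full statistics where an unadjusted p was under 0.05, and unadjusted p-values are given only as under or over 0.05. The number of arrays limits the precision. Alternatives covered background, normalization, filter, probe choice, blocks, weights and left-out arrays.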

Additional observations from a re-analysis of the deposited data

Results flagged for a closer look

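Of 49 sets of 5 arrays (7 members in 7 groups), 3 held an array far from the other 4, by a gap over the range above 0.71, and chance gives about 1 in 20. Irf7 was -0.84 in BPA250 replicate 2, with the nearest array at 0.69. Ifitm3 was 1.82 in the same animal, with the nearest at 3.66. That array lay on the brightest slide. Ifitm3 was -0.37 in BPA250+genistein replicate 4, not above background, with the nearest array at 2.83.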

How the results depend on the processing

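No member was called at an adjusted p under 0.05 in the reported limma fit, and 703 other counts of called members, including all that left out 1 array (range 0 to 0), stayed at 0. The exceptions came from 3 settings, which also called more of all genes: 5 genes in any contrast with slide as a fixed block, 169 with slide as a random block and 1314 with array weights, against 2 in the reported fit. With slide as a fixed block, 1 member was called by the F test, 1 in BPA250+genistein minus BPA250 and 1 in BPA250+genistein minus control (Ifi47 in both comparisons). With slide as a random block (correlation 0.584), 2 were called by the F test, 1 in BPA250+genistein minus BPA250 and 1 in BPA250+genistein minus control (Ifi47 in both), and 2 in BPA250+I3C minus control (Oas1a and Rsad2). With array weights, 2 were called by the F test, 1 in BPA25+I3C minus control and 1 in BPA250+I3C minus control (Oas1a in both). The cause was not tested. With the replicate number as a block, 0 members were called, and Rsad2 in BPA250+I3C minus BPA250 had an adjusted p of 0.201. Arrays of different groups with the same replicate number had a mean correlation of 0.22 (-0.375 to 0.942), against -0.043 for different numbers. Of 35 arrays, 20 had their highest mean correlation with the arrays of their own number, a hint from the data that numbers share something. Arrays of different groups on the same slide had a mean of 0.356. Replicate number went partly with slide and scan day, and all replicate 1 arrays were scanned on the same day. What the numbers share was not tested. The numbers were not taken to pair the animals because the labels do not say so and not every same-number correlation was above 0.1. Ifi47 was dropped by the filter that asked for 30 of 35 arrays, and dim signal limits Ifi47, Mx1 and Mx2.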
